A study of Mus musculus with 16 samples.

Results

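The guanylate-binding proteins (GBPs) described here are the products of 8 mouse genes, Gbp2, Gbp3, Gbp4, Gbp5, Gbp6, Gbp7, Gbp8 and Gbp9. They were taken as the rows of the deposited count table that carry these symbols, 8 of 32166 rows. They were chosen by name, with earlier results of these data known. All 8 were found, and all 8 passed the filter on low counts in every comparison. The table has 3 other Gbp genes (Gbp2b, Gbp10 and Gbp11), which are not part of the set and are given only where they bear on it.

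RNA was sequenced from microglia/macrophages of mouse brain on day 3 after transient middle cerebral artery occlusion (MCAO), a model of ischemic stroke, or after sham surgery. There were 4 libraries from MCAO control, 4 from MCAO Vdr-cKO, 5 from sham control and 3 from sham Vdr-cKO mice. Control mice were Vdrf/f littermates, with both copies of the vitamin D receptor gene Vdr flanked by loxP sites. Vdr-cKO mice were Cx3cr1CreER/+; Vdrf/f and carried in addition a tamoxifen-inducible Cre recombinase in 1 allele of Cx3cr1, a gene of microglia and of monocyte-derived cells. All mice were C57BL/6, 10 to 12 weeks old and, per the methods, male, and tamoxifen was given before surgery. The Cre allele came with the Vdr-cKO genotype in every library, so its effect and that of the loss of Vdr cannot be told apart. Whether 1 library came from 1 mouse is not stated in the sources used here, so the p-values measure the spread between these libraries.

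Libraries held 13795946 to 17836796 counts. Cx3cr1 stood at 815 to 1046 CPM (counts per 1000000, after TMM scaling of the library sizes) in MCAO Vdr-cKO and at 2211 to 2309.7 CPM in MCAO control libraries, and at 1416 to 3093 against 4508 to 5469.8 CPM after sham, lower in every Vdr-cKO library of either surgery. Vdr itself had 1 to 119 counts per library (22 to 119 in MCAO Vdr-cKO, 21 to 51 in MCAO control), and counts per gene do not measure the deletion of an exon. The 10 microglial markers summed to 27265 to 36970 CPM after sham and to 15402 to 21961 CPM after MCAO, without overlap, and the 10 monocyte markers to 124 to 258 CPM after sham and 1648 to 4580.3 CPM after MCAO. After MCAO the microglial sum was 15402 to 20349 CPM in Vdr-cKO and 20443 to 21961 CPM in control libraries, without overlap. Of these 10 markers 1 fell with genotype after MCAO, where 1.64% of all genes tested fell. It was Cx3cr1 (edgeR adjusted p = 4.04e-05), which carries the Cre and is part of the sum. Within the MCAO Vdr-cKO group, replicates 1 and 2 stood apart. Their monocyte markers summed to 4580.3 and 3352 CPM, while replicates 3 and 4 had 1906 and 1648 CPM, and their microglial markers summed to 15402 and 15673 CPM, below the 18399.7 and 20349 CPM of the other pair. The changes of the Gbp genes after MCAO are also given without them. The RNA is bulk RNA, in which more cells of a type and more RNA per cell cannot be told apart.

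GBPs are large GTPases of the dynamin superfamily that cells make after exposure to interferon (IFN), most of all IFN-γ. Inside the cell they assemble into coats on vacuoles and on bacteria, break them open and release microbial ligands to inflammasomes. Their genes are textbook targets of IFN signaling through a pair of DNA elements, the gamma-activated sequence (GAS) and the IFN-stimulated response element (ISRE). In microglia, as in other macrophages, their transcripts serve as a readout of exposure to IFN.

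In the mouse the genes lie in a pair of clusters. In the GENCODE M21 annotation of GRCm38, Gbp5 (ENSMUSG00000105504, chr3:142493978-142522344), Gbp7 (ENSMUSG00000040253, chr3:142530342-142550149), Gbp3 (ENSMUSG00000028268, chr3:142560026-142573209) and Gbp2 (ENSMUSG00000028270, chr3:142620602-142638008) follow each other on the plus strand of chromosome 3. Gbp8 (ENSMUSG00000034438, chr5:105014150-105139540), Gbp9 (ENSMUSG00000029298, chr5:105077630-105139539), Gbp4 (ENSMUSG00000079363, chr5:105115767-105139586) and Gbp6 (ENSMUSG00000104713, chr5:105270702-105293698) lie on the minus strand of chromosome 5. All 8 are annotated as protein coding. Gbp4, Gbp8 and Gbp9 overlap each other in 60 or 61 exon bases, which is 0.801% to 1.77% of their exon bases. Gbp6 shares 45.9% of its windows of 50 exonic bases with Gbp10, so reads of Gbp6 and Gbp10 could have been split between them and the values of both are uncertain. Gbp8 shares 18.1% of its windows with other Gbp genes, Gbp9 8.05%, Gbp4 7.53%, and the 4 genes on chromosome 3 between 0% (Gbp5) and 3.75% (Gbp3).

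RefSeq promoters (GRCm38.p6) were at hand for 4 of the 8 genes, Gbp2, Gbp3, Gbp5 and Gbp7, all on chromosome 3. They are shown because these 4 genes varied together between the libraries, and Gbp2b is shown beside them as a neighbour with 0 to 5 counts in every library. Each line gives the 250 bases before the RefSeq start on the plus strand, 5′ to 3′, with capitals for matches to the core of the ISRE (GAAANNGAAA, on either strand) or of the GAS (TTCNNNGAA, which reads the same on both strands).
Gbp2, chr3:142620413-142620662: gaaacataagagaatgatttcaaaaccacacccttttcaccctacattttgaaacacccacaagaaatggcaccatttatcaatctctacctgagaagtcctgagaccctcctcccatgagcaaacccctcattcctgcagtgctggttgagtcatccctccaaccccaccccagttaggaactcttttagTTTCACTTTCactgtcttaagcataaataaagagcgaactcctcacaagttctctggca
Gbp3, first of 2 starts, chr3:142559794-142560043: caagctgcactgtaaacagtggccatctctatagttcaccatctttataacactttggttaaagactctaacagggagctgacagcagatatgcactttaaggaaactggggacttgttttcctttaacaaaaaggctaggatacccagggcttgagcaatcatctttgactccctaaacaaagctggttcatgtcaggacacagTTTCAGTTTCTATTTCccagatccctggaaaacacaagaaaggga
Gbp5, chr3:142496684-142496933: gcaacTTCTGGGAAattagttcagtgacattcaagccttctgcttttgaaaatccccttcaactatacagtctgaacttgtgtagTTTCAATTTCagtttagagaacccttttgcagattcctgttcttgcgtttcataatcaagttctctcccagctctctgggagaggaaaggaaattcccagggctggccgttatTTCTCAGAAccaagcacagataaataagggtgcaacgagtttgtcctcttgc
Gbp7, chr3:142530086-142530335: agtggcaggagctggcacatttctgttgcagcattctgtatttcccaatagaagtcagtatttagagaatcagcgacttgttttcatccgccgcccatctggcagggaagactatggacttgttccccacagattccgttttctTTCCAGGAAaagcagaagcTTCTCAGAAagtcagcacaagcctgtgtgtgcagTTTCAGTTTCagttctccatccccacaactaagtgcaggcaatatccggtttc
Gbp2b, chr3:142594597-142594846: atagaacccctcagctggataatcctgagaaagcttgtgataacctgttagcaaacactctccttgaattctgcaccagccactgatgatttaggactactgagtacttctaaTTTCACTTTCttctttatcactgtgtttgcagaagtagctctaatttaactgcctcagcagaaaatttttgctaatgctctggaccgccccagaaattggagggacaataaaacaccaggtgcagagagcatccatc
Each of the 5 sequences held the ISRE core in the form that reads on the minus strand. It lay at bases -59 to -50 from the start in Gbp2, -53 to -44 in Gbp7, -165 to -156 in Gbp5 and -137 to -128 in Gbp2b. Gbp3 held a pair of overlapping cores, at -45 to -36 and -39 to -30. The GAS core lay in Gbp5 (-245 to -237 and -52 to -44) and in Gbp7 (-106 to -98 and -87 to -79), and in no other printed sequence. Of all 32851 promoters of 300 bases in the same table, 3.44% held the ISRE core, 8.3% the GAS core and 0.454% both. The window before the second start of Gbp3 held neither. The GENCODE start of Gbp2 lies 61 bases before the RefSeq one and that of Gbp5 2956 bases before it. These matches are letters in a window and were not tested as binding sites.

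**Figure D1:**
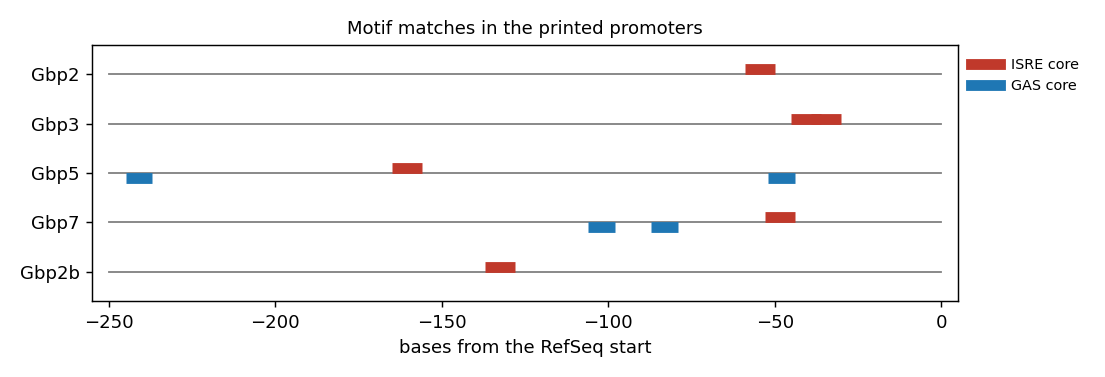
Positions of ISRE core (red) and GAS core (blue) matches along the 250 bases before the RefSeq start of 5 Gbp genes on chromosome 3, in bases from the start. Every line carries a red mark, and the blue marks are on Gbp5 and Gbp7 only.

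Levels after sham surgery came first, since they show which Gbp genes these bulk libraries held without stroke. Sham control libraries also held markers of neutrophils (8 genes, summed to 382 to 1473 CPM) and of endothelial cells (6 genes, 78.4 to 159 CPM). The part of such cells in the levels was not tested. Divided by exon length, Gbp9 and Gbp7 led in sham control libraries with 12.5 (range 11 to 14.4) and 11.9 (10.2 to 13.3) CPM per kb, and their ranges over the 5 libraries overlapped. The products of both collect on the vacuole of the parasite Toxoplasma in mouse cells, and Gbp7 also helps to assemble the NADPH oxidase on phagosomes that hold bacteria. Gbp3 followed with 5.96 CPM per kb (4.96 to 6.3), apart from its neighbours in the order. Gbp2, whose prenylated product binds vacuoles and bacteria, had 3.83 CPM per kb (3.31 to 4.57) and overlapped with Gbp5, a further prenylated GBP that is linked to the NLRP3 inflammasome, at 3.78 (3.25 to 4.12). Gbp8 (1.1, range 0.76 to 1.52) and Gbp4 (0.743, range 0.544 to 0.993) were lower and overlapped, and Gbp6 was lowest at 0.142 CPM per kb (0.102 to 0.18), from 10 to 18 counts per library. The same order of means was seen in sham Vdr-cKO libraries, from 13.9 CPM per kb for Gbp9 to 0.175 for Gbp6. After MCAO the order changed. In MCAO control libraries the ranges of Gbp7 (11.9), Gbp9 (11.9), Gbp2 (10.9) and Gbp3 (10.1 CPM per kb) overlapped from each to the next, and in MCAO Vdr-cKO libraries Gbp2 had the highest mean at 45.9 CPM per kb (24 to 88.9), with a range that overlapped with that of Gbp9 at 31 (25.3 to 36.5). All 8 genes together took 198 to 238 of every 1000000 counts in sham control, 218 to 250.3 in sham Vdr-cKO, 192 to 221 in MCAO control and 747, 581, 372 and 363 in MCAO Vdr-cKO replicates 1 to 4.

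**Figure D2:**
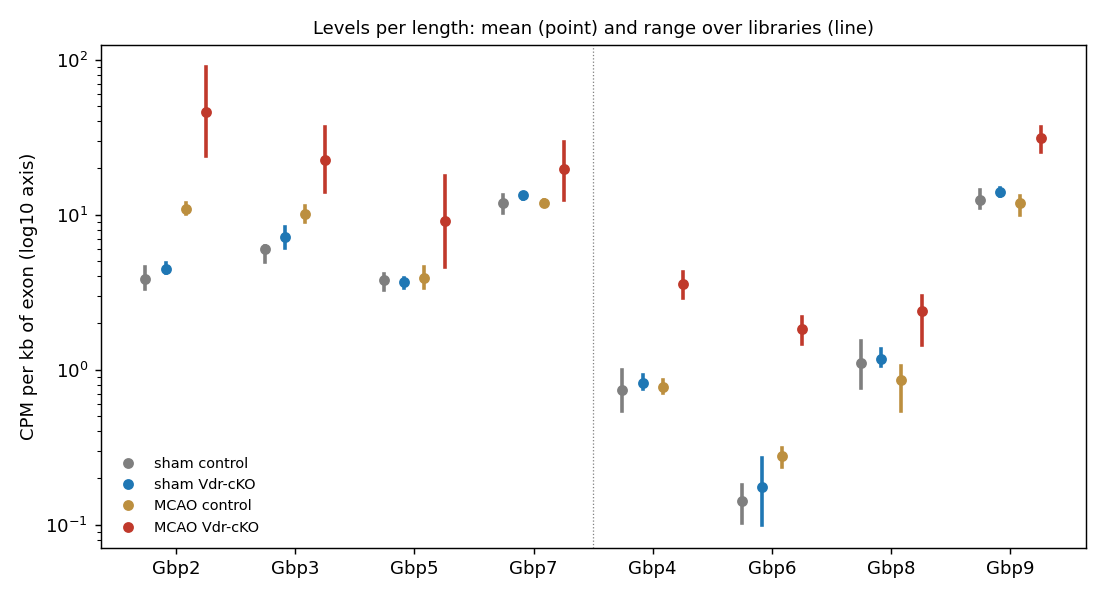
Mean level of each Gbp gene in CPM per kb of exon (points, log10 axis) with the range over libraries (lines) in the 4 groups. Gbp9 and Gbp7 are highest in the sham groups, and Gbp2 has the highest mean in MCAO Vdr-cKO libraries.

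The first comparison asked whether the loss of Vdr changes GBPs without stroke. After sham surgery 0 of the 8 genes passed an adjusted p under 0.05 by edgeR, where 0.444% of the 16425 genes tested rose and 0.0244% fell. The count was also 0 at an unadjusted p under 0.05, by DESeq2 and by limma-voom. The share of all genes at the unadjusted threshold is not given here. The log2 fold changes ran from -0.08 (Gbp5) to 0.26 (Gbp6), with a median of 0.13 beside -0.02 for all genes tested. Gbp2, for example, had 11.2, 11.5, 8.75, 8.34 and 8.44 CPM in the 5 sham control and 10.7, 12.3 and 10.5 CPM in the 3 sham Vdr-cKO libraries. The groups overlapped for all 8 genes, whereas 5.22% of all genes tested had every Vdr-cKO library above every control library. With 5 against 3 libraries the standard errors were 0.10 to 0.39 on the log2 scale (0.10 for Gbp7 and Gbp9, 0.39 for Gbp6). A change of the size of these errors, or well above it, could have been missed at the adjusted threshold.

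The second comparison took MCAO against sham in control mice, in which 31.2% of the 16089 genes tested rose and 32.3% fell. Gbp2, Gbp3 and Gbp6 rose, 3 of the 8 genes, and 0 fell, although with upper quartile scaling Gbp7 (-0.21) and Gbp9 (-0.28) fell. Gbp2 had 26.3, 25.5, 29.7 and 28.1 CPM in the 4 MCAO control libraries, against the 8.34 to 11.5 CPM of sham control libraries. Every MCAO library was thus above every sham library, and the log2 fold change was 1.48 (standard error, SE, 0.13, edgeR adjusted p = 8.52e-07). Gbp3 had 32.1, 34.1, 36.8 and 29.4 CPM after MCAO and 20.6, 20.5, 20.5, 19.5 and 16.2 CPM after sham. These groups did not overlap either, and the log2 fold change was 0.74 (SE 0.10, edgeR adjusted p = 5.12e-05). Gbp6, with 20 to 28 counts per library after MCAO and 10 to 18 after sham, rose by 0.93 on the log2 scale (SE 0.29, edgeR adjusted p = 0.0129). For these 3 genes every MCAO library was above every sham library, as it was for 28.3% of all genes tested. The other 5 genes lay between -0.40 (Gbp8, SE 0.27) and 0.03 (Gbp4, SE 0.19), and the median over the 8 was 0.02 beside -0.05 for all genes. Only Gbp2 had a log2 fold change above 1. In the same comparison 8 of the 10 microglial markers fell and 9 of the 10 monocyte markers rose, and their part in these changes was not tested.

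The comparison that the design turns on is Vdr-cKO against control after MCAO. Here Gbp2, Gbp3, Gbp4, Gbp6, Gbp8 and Gbp9 rose, 6 of the 8 genes, and 0 fell, by edgeR's quasi-likelihood test with Benjamini-Hochberg adjustment over the 15286 genes tested. Of all genes tested 3.24% were higher and 1.64% lower in this comparison. All 6 also had a log2 fold change above 1, and 1.67% of all genes tested met both conditions in this direction. The median log2 fold change of the 8 genes was 1.44, and that of all genes 0.01. All 4 Vdr-cKO libraries lay above all 4 control libraries for each of the 8 genes, as they did for 6.05% of all genes tested. Gbp4, Gbp6 and Gbp9 stand among the IFN-related genes that the study itself displays, chosen on these samples, so for these 3 the direction is not independent evidence. The other members were also chosen with earlier results of these data known.

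**Figure D3:**
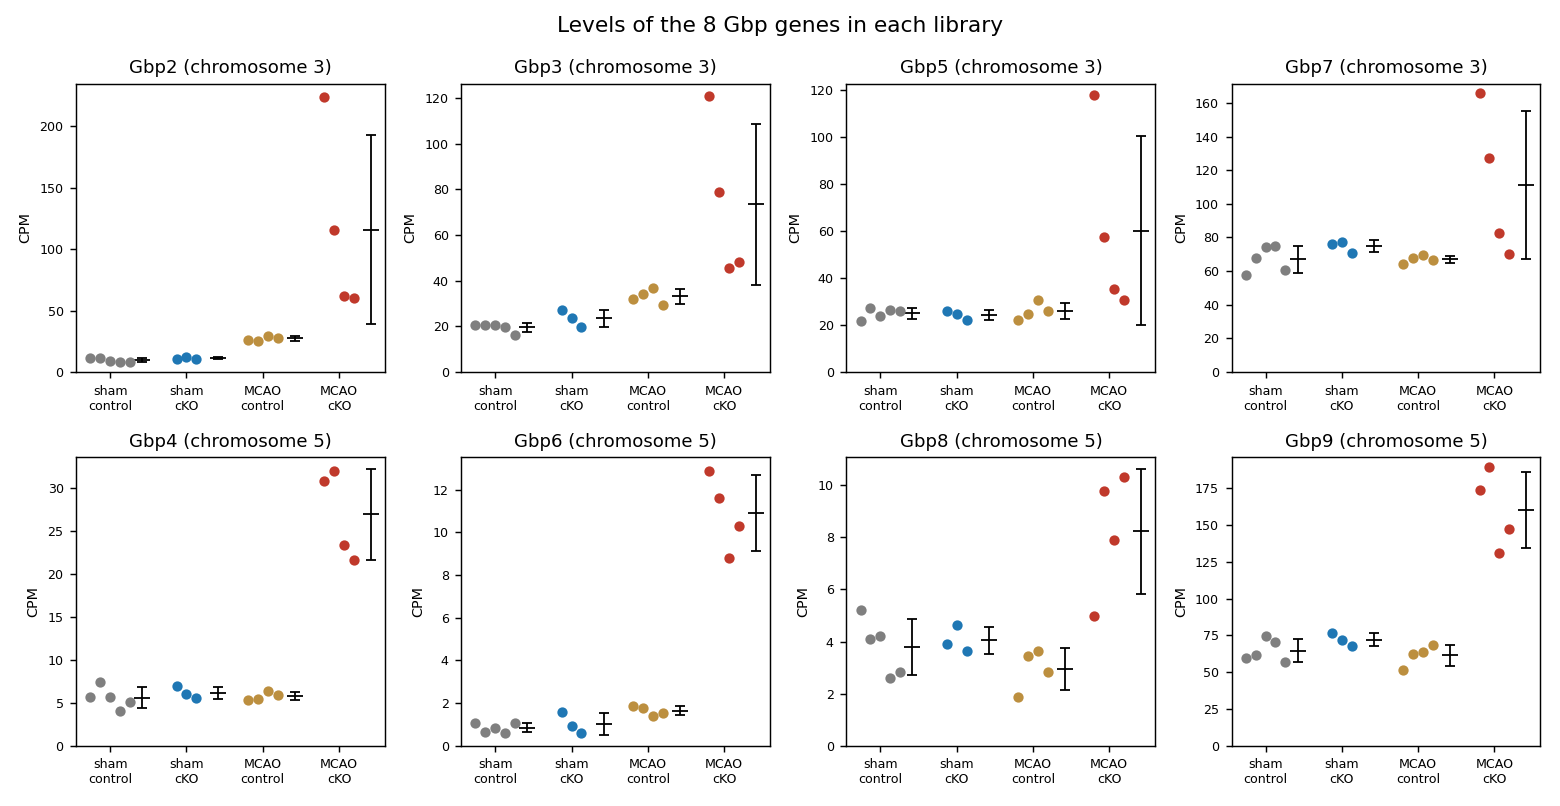
CPM of each Gbp gene in every library (points) by group, with the mean and SD of the group (bar to the right of the points), chromosome 3 genes in the upper row and chromosome 5 genes in the lower row. The 4 MCAO Vdr-cKO libraries lie above the 4 MCAO control libraries in every panel, and their spread is wide in the upper row.

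Among the genes on chromosome 3, Gbp2 had 224, 116, 62.1 and 60.4 CPM in MCAO Vdr-cKO replicates 1 to 4 and 26.3, 25.5, 29.7 and 28.1 CPM in the MCAO control libraries. All Vdr-cKO libraries were above all controls, and replicate 1 had 3.7 times the level of the lowest Vdr-cKO library. The log2 fold change was 2.09 (SE 0.36, edgeR adjusted p = 0.00611). Gbp5 had 118, 57.7, 35.2 and 30.6 CPM in Vdr-cKO and 22.3, 24.6, 30.5 and 26.1 CPM in control libraries, so that the lowest Vdr-cKO library was just above the highest control. Its log2 fold change of 1.23 (SE 0.36) did not pass the threshold (edgeR adjusted p = 0.0766). Gbp3, whose product also collects on the Toxoplasma vacuole, had 121, 78.7, 45.7 and 48.1 CPM in Vdr-cKO and 32.1, 34.1, 36.8 and 29.4 CPM in control libraries. It rose by 1.16 on the log2 scale (SE 0.27, edgeR adjusted p = 0.0293), but the call was lost in 5 of 8 fits that left out 1 library, with a similar fold. Without any 1 of the 4 MCAO control libraries the log2 fold change of Gbp3 was 1.10 to 1.22 (adjusted p 0.0614 to 0.105), and without MCAO Vdr-cKO replicate 2 it was 1.12 (0.0615). Without replicate 1 it was 0.81 and passed (edgeR adjusted p = 0.0281). Gbp7 had 166, 127, 82.4 and 70.0 CPM in Vdr-cKO and 64.5, 67.5, 69.4 and 66.7 CPM in control libraries. Replicate 4 of the Vdr-cKO group was at the level of the controls, and the log2 fold change of 0.75 (SE 0.22) did not pass (edgeR adjusted p = 0.0831). Gbp7 passed with DESeq2 (adjusted p = 0.0143), and Gbp5 and Gbp7 passed with all 16 libraries in 1 fit of edgeR (adjusted p = 0.0151 and 0.0227). Without MCAO Vdr-cKO replicate 4 both passed as well (edgeR adjusted p = 0.0282 for Gbp5 and 0.019 for Gbp7), and Gbp5 came to the threshold without replicate 3 (0.05).

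Among the genes on chromosome 5, Gbp6 rose most. It had 187, 183, 147 and 154 counts in Vdr-cKO and 28, 27, 20 and 23 counts in control libraries, or 10.9 ± 1.79 (SD, n = 4) against 1.65 ± 0.211 CPM (SD, n = 4). The groups were far apart, and the log2 fold change was 2.73 (SE 0.19, edgeR adjusted p = 2.18e-05), with the uncertainty from Gbp10 given above. Gbp4 had 30.8, 32, 23.3 and 21.6 CPM in Vdr-cKO and 5.33, 5.49, 6.4 and 5.95 CPM in control libraries. Its lowest Vdr-cKO library had over 3 times the level of the highest control, and the log2 fold change was 2.23 (SE 0.16, edgeR adjusted p = 2.18e-05). Gbp8 had 4.98, 9.78, 7.88 and 10.3 CPM in Vdr-cKO and 1.87, 3.44, 3.65 and 2.84 CPM in control libraries, and rose by 1.49 on the log2 scale (SE 0.27, edgeR adjusted p = 0.00812). Replicate 1, the Vdr-cKO library with the most Gbp2, had the least Gbp8. Gbp9 had 174, 189, 131 and 147 CPM in Vdr-cKO and 51.6, 62.5, 64 and 68.2 CPM in control libraries. It was the most abundant of these 4 genes by length, and its log2 fold change was 1.39 (SE 0.13, edgeR adjusted p = 9.67e-05). These 4 genes passed without any 1 of the 8 libraries, as did Gbp2.

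**Figure D4:**
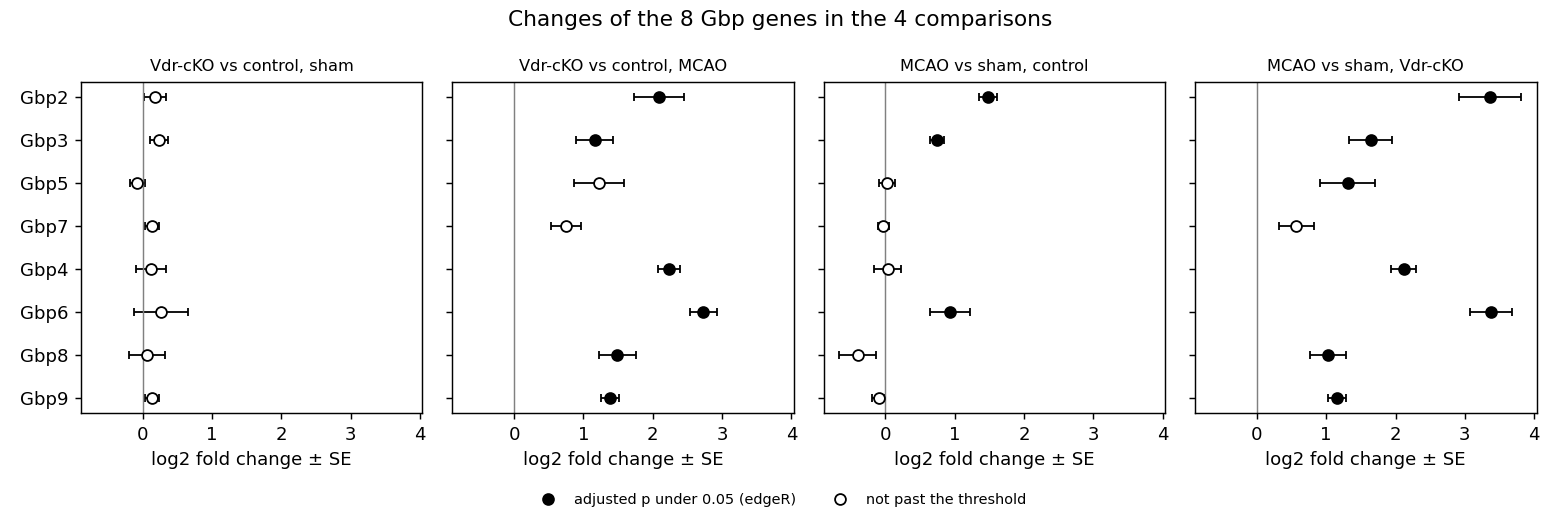
Log2 fold change with standard error of each Gbp gene in the 4 comparisons of 2 groups (filled points, adjusted p under 0.05 from edgeR). All points for genotype after sham lie between -0.08 and 0.26, and all points of the panels for genotype after MCAO and for surgery in Vdr-cKO mice lie above 0, where the open points are Gbp5 and Gbp7 in the former and Gbp7 in the latter.

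The clusters differed in how even the rise was among the 4 MCAO Vdr-cKO libraries. Over the mean of MCAO control libraries, Gbp2 stood at 8.17-fold, 4.24-fold, 2.27-fold and 2.21-fold in replicates 1 to 4. Gbp3 ran from 1.38-fold to 3.65-fold, Gbp5 from 1.18-fold to 4.55-fold and Gbp7 from 1.05-fold to 2.48-fold, each with replicate 1 highest and replicate 2 next. On chromosome 5 the range was narrower, from 5.31-fold to 7.82-fold for Gbp6, 3.73-fold to 5.53-fold for Gbp4 and 2.13-fold to 3.07-fold for Gbp9. For Gbp8 it was 1.69-fold in replicate 1 and 2.67-fold to 3.48-fold in the others. The highest library had 2.37 (Gbp7) to 3.85 (Gbp5) times the level of the lowest for the chromosome 3 genes, and 1.44 (Gbp9) to 2.06 times (Gbp8) for the chromosome 5 genes. After subtraction of group means, the log levels of the chromosome 3 genes correlated with each other at r = 0.85 to 0.92 over the 16 libraries (6 pairs, median 0.91). The chromosome 5 genes correlated at -0.14 to 0.39 (6 pairs, median 0.19), and genes of different clusters at -0.48 to 0.68 (16 pairs, median 0.48). These are descriptions of libraries that share their depth and cells. They rest on the MCAO Vdr-cKO libraries, without which (12 libraries) the 3 ranges were -0.26 to 0.47, -0.14 to 0.57 and -0.31 to 0.75. Gbp6 and Gbp8 had 10 to 28 and 28 to 89 counts outside the MCAO Vdr-cKO group. Low counts can lower a correlation, and how far they did so here was not tested. The difference between the clusters was not tested either.

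**Figure D5:**
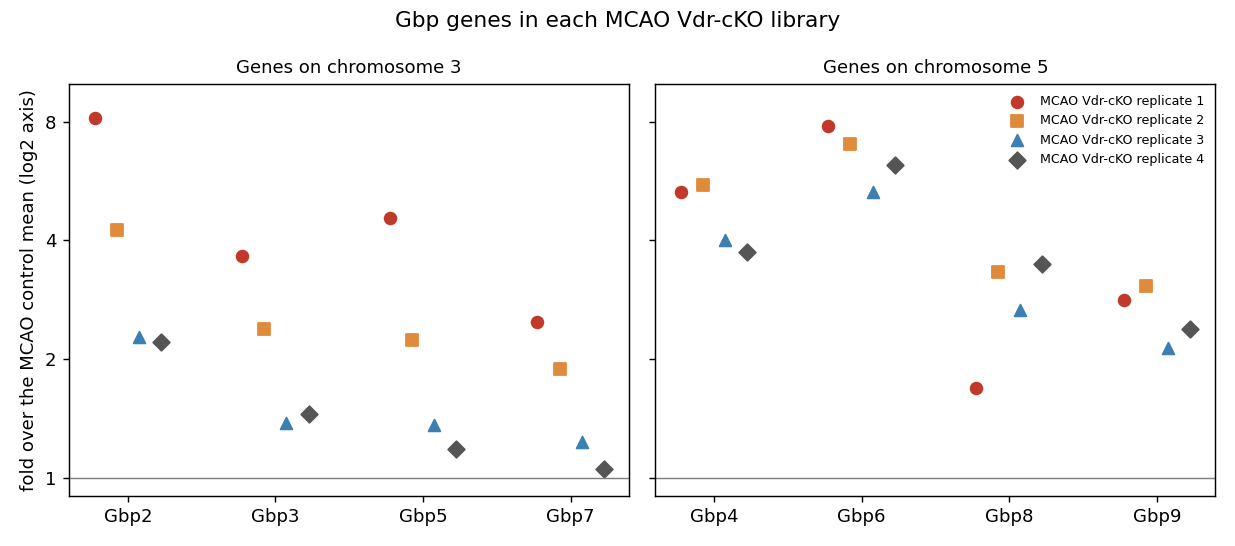
Level of each Gbp gene in the 4 MCAO Vdr-cKO libraries as a fold over the mean of MCAO control libraries (log2 axis), chromosome 3 genes at left and chromosome 5 genes at right, 1 symbol per library. At left replicate 1 is highest for every gene, from 2.48-fold to 8.17-fold, and at right it is lowest for Gbp8.

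With MCAO Vdr-cKO replicates 1 and 2 both left out, the log2 fold changes were 1.17 for Gbp2, 0.51 for Gbp3, 0.36 for Gbp5 and 0.20 for Gbp7. On chromosome 5 they were 2.53 for Gbp6, 1.97 for Gbp4, 1.63 for Gbp8 and 1.19 for Gbp9. The same 6 genes passed, with an adjusted p from edgeR of 0.0231 for Gbp3 and at most 0.00562 for the others. The pair left out was chosen on values of these libraries, and only replicates 3 and 4 remain in the group. These passes are thus no independent check of the calls. Monocyte markers were also highest in replicates 1 and 2. Their mean log2 level, leaving out Ly6c2, was 7.63, 7.11, 6.12 and 5.98 in MCAO Vdr-cKO replicates 1 to 4 and 5.44 to 6.41 in MCAO control libraries. By their sum, which includes Ly6c2, replicates 3 and 4, at 1906 and 1648 CPM, lay below the 2567 to 3914 CPM of the MCAO control libraries. Of the 10 markers Ly6c2, Ms4a4c and Plac8 rose, the last 2 of which are in the mean, and Fn1 had -0.71 (edgeR adjusted p = 0.182). With that mean as a covariate, Gbp2 (1.03, adjusted p = 0.0311), Gbp4 (1.97), Gbp6 (2.48), Gbp8 (1.92) and Gbp9 (1.27) passed by edgeR and Gbp3 did not (0.45, adjusted p = 0.296). Values for Gbp5 and Gbp7 in that fit were 0.24 and 0.15. Since 2 genes of the mean rose with genotype, that fit cannot tell monocyte content from genotype, for the genes that passed or for Gbp3. The 8 T cell markers, of which 0 rose and 1 was tested, summed to 2.21, 4.83, 13.1 and 5.46 CPM in MCAO Vdr-cKO and to 0.473 to 2.18 CPM in MCAO control libraries, with replicate 3 highest. As a background to these marker calls, 3.24% of all genes tested rose and 1.64% fell in this comparison. Markers of border macrophages, of which 2 of 6 fell, summed to 844 to 1014 CPM in MCAO Vdr-cKO and to 1291 to 1609 CPM in MCAO control libraries. The part of these other cells in the levels of GBPs was not tested.

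Whether the change with genotype differed between the surgeries was tested with an interaction term over all 16 libraries. It was more positive after MCAO for 4 of the 8 genes, Gbp6 (2.44, SE 0.40, adjusted p = 0.00175), Gbp4 (2.09, SE 0.26, adjusted p = 0.000186), Gbp2 (1.89, SE 0.45, adjusted p = 0.0294) and Gbp9 (1.24, SE 0.17, adjusted p = 0.000457), all from edgeR. Of the 17335 genes tested, 1.4% were called in this direction and 1.15% in the other. Gbp8 (1.41, adjusted p = 0.0656), Gbp5 (1.29, adjusted p = 0.135), Gbp3 (0.89, adjusted p = 0.202) and Gbp7 (0.59, adjusted p = 0.318) had values above 0 that did not pass by edgeR. Gbp5 and Gbp8 passed by DESeq2 (adjusted p = 0.0357 and 0.0112). By edgeR Gbp5 also passed without MCAO Vdr-cKO replicate 4 (adjusted p = 0.0355), and Gbp8 without MCAO Vdr-cKO replicate 1 (0.0241) or sham control replicate 4 (0.0443). The call of Gbp2 was lost in 7 of 16 fits that left out 1 library, those without sham control replicate 2, any of the 3 sham Vdr-cKO libraries, or MCAO control replicate 1, 2 or 4. In these fits its value stayed at 1.82 to 1.94, with an adjusted p of 0.0508 to 0.0866. The lowest value of Gbp2, 1.34 without MCAO Vdr-cKO replicate 1, passed (edgeR adjusted p = 0.011). It was also lost with limma-voom (1.65, adjusted p = 0.183). Gbp4, Gbp6 and Gbp9 passed without any 1 of the 16 libraries and with each of these tools. With MCAO Vdr-cKO replicates 1 and 2 both left out, the same 4 genes passed by edgeR, Gbp2 at 0.96 (adjusted p = 0.00966), Gbp4 at 1.82, Gbp6 at 2.24 and Gbp9 at 1.03. The limit given above for leaving out this pair holds here too.

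In Vdr-cKO mice, MCAO against sham raised 7 of the 8 genes and lowered 0, where 29.3% of the 16357 genes tested rose and 28.8% fell. This comparison shares its MCAO Vdr-cKO libraries with the one between genotypes and is given for its own values. Gbp6 (3.38, SE 0.30) and Gbp2 (3.36, SE 0.45) rose most on the log2 scale, followed by Gbp4 (2.12), Gbp3 (1.64), Gbp5 (1.31), Gbp9 (1.15) and Gbp8 (1.02), with adjusted p-values from edgeR of 4.29e-06 (Gbp4) to 0.016 (Gbp5). Gbp7 had 0.57 (SE 0.25, adjusted p = 0.071), and passed without MCAO Vdr-cKO replicate 3 (0.71, adjusted p = 0.0313) or 4 (0.74, adjusted p = 0.0113) and with the replicate number as a term (0.68, adjusted p = 0.0114). Gbp5 was lost without sham Vdr-cKO replicate 3 (1.26, adjusted p = 0.0583) and was 0.77 without MCAO Vdr-cKO replicate 1. With replicates 1 and 2 of that group both left out, the same 7 genes passed by edgeR, with Gbp2 at 2.46, Gbp3 at 1.00 and Gbp5 at 0.44, while Gbp7 was at 0.03. The limit given above for leaving out that pair holds here as well. In this comparison 8 of the 10 microglial markers fell and 10 of the 10 monocyte markers rose, and their part in the changes of the Gbp genes was not tested. For 7 genes, Gbp7 excepted, every MCAO library was above every sham library, as for 30.1% of all genes tested. In Gbp7 the lowest MCAO Vdr-cKO library, at 70.0 CPM, fell below the 70.9 to 77.5 CPM of the sham Vdr-cKO libraries. In control mice the same surgery gave 1.48 for Gbp2 and 0.93 for Gbp6, but 0.03 for Gbp4 and -0.10 for Gbp9.

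The 3 other Gbp genes were rare. Gbp2b and Gbp11 had 0 to 5 counts in every library of every group and were not tested. Gbp10 had 4, 24, 13 and 12 counts in the MCAO Vdr-cKO libraries, 0 to 2 in MCAO control, 0 to 7 in sham control and 0 to 2 in sham Vdr-cKO libraries. Its MCAO Vdr-cKO libraries were all above the MCAO control libraries, but its counts were too low for the test in that comparison. Gbp10 rose in Vdr-cKO mice after MCAO against sham (log2 fold change 4.17, SE 0.93, edgeR adjusted p = 0.00286), a fold fitted on 0 to 2 counts in the sham libraries, and the interaction did not pass (5.06, SE 1.82, edgeR adjusted p = 0.184). The low counts limit these values, and much of its sequence is that of Gbp6.

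The genes most like the GBPs were sought over all 16 libraries, as the 5 with the highest Pearson r to the mean of the 8 genes after group means were subtracted. They were Sp100 (r = 0.95, Spearman's rho 0.87), a nuclear body protein, Mndal (0.95, rho 0.81) and Ifi203 (0.94, rho 0.83), of the Ifi200 family of DNA-binding proteins, Mx1 (0.93, rho 0.81), an antiviral GTPase of the dynamin superfamily, and Tnfsf10 (0.93, rho 0.84), the death ligand TRAIL. Without MCAO Vdr-cKO replicates 1 and 3, the libraries farthest from the median, r was 0.82 to 0.90. All 5 rose in Vdr-cKO after MCAO, by 1.59 (Sp100 and Tnfsf10) to 2.46 (Mx1) on the log2 scale, with adjusted p-values from edgeR of 0.000109 (Sp100) to 0.00747 (Ifi203). Of all genes tested 3.24% rose there. The ranking is a description, made on libraries that share depth and cells. The 5 genes were picked on these same libraries, so their rise is no independent evidence. The ranking was not redone without the MCAO Vdr-cKO group, on which the correlations among the chromosome 3 genes rest. The 8 genes did not all vary together. Those on chromosome 3 correlated with each other at r = 0.85 to 0.92 and those on chromosome 5 at -0.14 to 0.39. Likeness to their mean is thus not likeness to each GBP.

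Genes that act before and after GBPs were followed in lists, in Vdr-cKO against control after MCAO. Of 9 genes for IFN ligands, receptors and kinases, 7 were tested and 0 rose or fell by edgeR. Of all genes tested 3.24% rose and 1.64% fell, so 0 of 7 genes is near those shares. At an unadjusted p under 0.05 by edgeR 1 was higher and 2 were lower. No share of all genes at that threshold is given to set beside them. Tyk2, a kinase of the type I IFN receptor, had 0.22 (SE 0.08, adjusted p = 0.148), Ifngr1, a chain of the IFN-γ receptor, -0.26 (SE 0.10, adjusted p = 0.19) and Ifnar1, a chain of the type I receptor, -0.19 (SE 0.08, adjusted p = 0.208). The ligand genes were too low to be tested. Ifng had 0 to 2 counts in every library, and Ifnb1 had 23, 2, 3 and 11 counts in MCAO Vdr-cKO and 0 to 4 counts in MCAO control libraries. These ligand values were picked after they had been seen. Replicate 1, the library with the most Gbp2, also had the most Ifnb1, but the other libraries did not keep this order. Replicate 2, next in Gbp2, had 2 counts of Ifnb1, and replicate 4, with the least Gbp2, had 11.

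Of 8 transcription factors of Gbp genes and brakes on IFN signaling, 5 rose and 0 fell, with a median log2 fold change of 0.75 beside 0.01 for all genes. In this comparison 3.24% of all genes tested rose. Stat2 and Irf9, which act together at the ISRE, both rose. Stat2 went from 164 ± 12.9 to 544 ± 150.5 CPM (SD, n = 4 each), by 1.74 on the log2 scale (SE 0.17, edgeR adjusted p = 0.000151), and Irf9 from 99.3 ± 5.83 to 164 ± 10.7 CPM (SD, n = 4 each), by 0.73 (SE 0.08, edgeR adjusted p = 0.000237). Of 8 other IFN-induced GTPases that act with GBPs at vacuoles, 7 were in the table under these symbols, and all 7 rose, with a median of 1.47. Tgtp2 rose from 3.34 ± 0.551 to 24 ± 4.43 CPM (SD, n = 4 each), by 2.85 (SE 0.18, adjusted p = 8.66e-06). Irgm1 rose by 1.47 (SE 0.14) and Irgm2 by 1.03 (SE 0.10), both regulators that keep other GTPases off the membranes of the cell itself (adjusted p = 0.000109 each, from edgeR). These 2 lists also hold IFN-induced genes and were chosen with earlier results of these data known.

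Of 14 genes linked to GBP coats (prenylation enzymes, ATG conjugation and ubiquitin ligases), 2 rose and 0 fell, where 3.24% of all genes tested rose, with a median log2 fold change of -0.02. No prenylation or ATG gene rose. The 2 were ubiquitin ligases, Rnf213 (1.47, SE 0.20, edgeR adjusted p = 0.00126), which marks bacterial lipopolysaccharide, and Trim21 (0.91, SE 0.16, adjusted p = 0.00562), a cytosolic antibody receptor. Atg5, of the conjugation system of autophagy, had -0.31 (SE 0.10, adjusted p = 0.0924). Of 10 inflammasome and pyroptosis genes, 3 rose and 0 fell, with a median of 0.25. Gsdmd, which forms the pore of pyroptosis, rose from 139 ± 3.54 to 188 ± 9.34 CPM (SD, n = 4 each), by 0.45 (SE 0.07, edgeR adjusted p = 0.00287). Il18, a cytokine that inflammasomes mature, rose by 0.89 (SE 0.15, adjusted p = 0.00419), and Casp4, the mouse caspase-11 that senses lipopolysaccharide in the cytosol, by 0.76 (SE 0.16, adjusted p = 0.0187). After sham surgery 0 genes of these 5 lists passed by edgeR in either direction, where 0.444% of all genes tested rose and 0.0244% fell. At an unadjusted p under 0.05 by edgeR 2 were lower, both in the inflammasome list, and the share of all genes at that threshold is not given here.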

How the data were processed

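The authors deposited raw counts per gene for 16 libraries of microglia/macrophages. Per the submitters' notes, bcl2fastq, HISAT2 2.1.0, TopHat, limma and GRCm38 were used. The counting tool, annotation and strand setting are not given in the sources used here. Isolation was with CD11b microbeads and libraries were from poly-A mRNA in the methods, whereas the labels give sorting of CD11b+CD45int cells and depletion of ribosomal RNA, and these were not reconciled. Only the sham control column names carry a read-file ending, so differences in the handling of that group cannot be told apart from its condition.

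Groups were taken from the sample titles. Counts were filtered (filterByExpr), scaled by TMM and tested with edgeR 4.0.16 (R 4.3.3, quasi-likelihood) on the groups compared, and on all 16 libraries for the interaction, with Benjamini-Hochberg adjustment over all genes tested. Rose or fell means an adjusted p under 0.05. The script was tested on simulated data. Total counts of 13795946 to 17836796 per library set the precision, given as SD over libraries or as standard error. Gene positions and exon lengths are from GENCODE M21, matched by Ensembl ID, because the positions in the table belong to another build. The likeness used log2(CPM + 1).

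The text names all Gbp genes, up to 3 genes with the smallest adjusted p of each pathway list and the 5 genes most like the set; Ifng and Ifnb1 were added after their values were seen. The members and lists were chosen with earlier results of these data known. Alternatives were RLE and upper quartile scaling, a filter of 10 counts in each library or none, limma-voom (limma 3.58.1), DESeq2 1.42.0, a joint fit of the 4 groups, a block for the replicate number, each library left out, MCAO Vdr-cKO replicates 1 and 2 left out, a monocyte covariate and a log2 fold change above 1. Protein sequences were not used here. A gene that the rule would name is not reported here.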

Additional observations from a re-analysis of the deposited data

Results flagged for a closer look

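The change of Gbp2 with genotype was larger after MCAO than after sham surgery by 1.89 on the log2 scale, that of Gbp4 by 2.09, that of Gbp6 by 2.44 and that of Gbp9 by 1.24, each past the threshold in the test of the difference itself (edgeR, adjusted p from 0.000186 to 0.0294). For the other 4 Gbp genes the difference did not pass.

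Gbp3 in sham control replicate 5 had 16.2 CPM and stood below the other sham control libraries (19.5 to 20.6 CPM), with a gap of 0.765 of the group's range. In all 24 groups of 4 or 5 libraries were looked at for such a gap, and chance alone flags about 5% of groups. Without that library Gbp3 still rose after MCAO in control mice.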

How the results depend on the processing

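Among the alternative values for single genes, 709 kept their direction and their side of the threshold, 23 passed only under the alternative, 18 were lost and 18 changed sign, and none of the values that changed sign was called in either fit. With upper quartile scaling MCAO against sham in control mice was -0.15 for Gbp4 and -0.16 for Gbp5, and Gbp7 (-0.21) and Gbp9 (-0.28) fell; that scaling moved the median of all genes from -0.05 to -0.24 there and from -0.02 to -0.20 in Vdr-cKO mice. With at least 10 counts in every library the same contrast was -0.01 for Gbp4 and -0.02 for Gbp5. Only 1 of the 8 genes, not 3, rose with a log2 fold change above 1 there. Leaving out each library gave -0.08 to 0.15 for Gbp4, -0.07 to 0.10 for Gbp5 and -0.07 to 0.02 for Gbp7 in that contrast, and -0.18 to 0.55 for Gbp6 and -0.06 to 0.20 for Gbp8 between genotypes after sham. The count of Gbp genes that rose with genotype after MCAO was 5 to 8 over the libraries left out, 5 with limma-voom and 8 with no filter; for the interaction it was 3 to 5, 3 and 6. The libraries share only a replicate number. After MCAO the deviations of same-numbered libraries correlated at 0.39 for replicate 1 and at -0.14, 0.07 and 0.05 for replicates 2, 3 and 4. A shared batch was not tested. A block for the replicate number gave counts of 6 after MCAO, 0 after sham, 3 and 8 for surgery in control and Vdr-cKO mice and 4 for the interaction, and under it the change after sham was -0.05 for Gbp4 and -0.19 for Gbp8. The cause of these shifts was not tested. Depth limits Gbp6 and Gbp8 most, with 10 to 28 and 28 to 89 counts outside the MCAO Vdr-cKO group.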
